A study of Homo sapiens with 2 samples.

Results

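The genes described here encode subunits of the V-ATPase, the proton pump that acidifies lysosomes and other compartments of the cell. They are the genes whose symbol starts with ATP6V0 or ATP6V1 among those that the authors' deposited table lists as changed after ezetimibe in SNU-449 cells. They were thus chosen by the authors' call of a change, and 11 of the 2238 listed genes met the rule. SNU-449 is a human hepatocellular carcinoma line. The study sequenced RNA from 1 culture labelled control and 1 culture given ezetimibe for 24 h, a drug used to lower cholesterol through its action on the uptake protein NPC1L1. Both came from the same line and medium, neither the dose nor the vehicle is stated in the labels, and there was 1 library per group. The authors' deposited table gives each changed gene a direction under the KEGG pathways that hold it, with no level, fold change or p for the gene, so no difference below has a replicate check. Up is taken to mean higher in the treated culture, because the comparison names ezetimibe first, and no value was at hand to check this order.

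The V-ATPase is a rotary motor with a pair of sectors. The V1 sector lies in the cytosol and splits ATP, and the V0 sector lies in the membrane and passes protons across it. The low pH that results activates lysosomal enzymes, releases cargo from receptors in endosomes and loads vesicles, and the pump is also a docking platform for the machinery that tells the kinase mTORC1 about amino acids. Cells can take V1 off V0 to stop the pump, and many subunits have several isoforms that differ in tissue or compartment.

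Of the 11 V-ATPase genes, 9 carried the direction up and 2 the direction down. Over all 8877 background genes of the authors' deposited table, 25.2% were listed as changed, 8.20% as up and 17.0% as down, and of the 2238 listed genes 32.5% were up. Because listing chose the members, these shares are the setting for the counts and not a test of them. The V0 sector had 5 genes up and 1 down, and the V1 sector 4 up and 1 down. Each of the 2 genes listed as down, ATP6V0E2 and ATP6V1E2, is 1 of a pair of isoforms.

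In the V0 sector, the c ring that carries the protons is formed by the products of ATP6V0C (ENSG00000185883; chromosome 16, 2513870 to 2520218, plus strand) and ATP6V0B (ENSG00000117410; chromosome 1, 43974487 to 43978295, plus strand). Both were listed as up. ATP6V0A2 (ENSG00000185344; chromosome 12, 123712318 to 123761755, plus strand), also up, encodes the a2 isoform of the large membrane subunit that forms the proton path beside the ring, and this isoform is known for the Golgi and endosomes. The d subunit couples the ring to the central stalk, and both of its genes were up. They are the widely expressed ATP6V0D1 (ENSG00000159720; chromosome 16, 67438014 to 67481237, minus strand) and ATP6V0D2 (ENSG00000147614), an isoform known from bone-resorbing osteoclasts and kidney. The small e subunit was the exception, with its e2 isoform ATP6V0E2 (ENSG00000171130; chromosome 7, 149872968 to 149891204, plus strand) listed as down. Coordinates are those of GENCODE release 29 on GRCh38.

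In the V1 sector, ATP6V1B2 (ENSG00000147416), which encodes the widely expressed B2 isoform of the subunit that forms the ATP-binding head together with subunit A, was listed as up. ATP6V1H (ENSG00000047249), whose product regulates the pump when V1 leaves V0, was up, as was ATP6V1F (ENSG00000128524; chromosome 7, 128862826 to 128865844, plus strand), a subunit of the central stalk. The E subunit, part of the outer stalks that hold the head in place, went both ways. ATP6V1E1 (ENSG00000131100; chromosome 22, 17592136 to 17628818, minus strand), the general isoform, was up, and ATP6V1E2 (ENSG00000250565; chromosome 2, 46490750 to 46542557, minus strand), an isoform known from testis, was down. ATP6V1B2, ATP6V1H and ATP6V0D2 lie on chromosome 8.

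Counted by the letter in the gene symbol, every kind of V0 subunit had a listed gene, and several kinds of V1 subunit had none. By gene, 60.0% of 10 V0 genes and 38.5% of 13 V1 genes were listed, beside 25.2% of all background genes. The kinds differ in how many genes they hold, and a difference between the sectors was not tested. The accessory subunit genes ATP6AP1, ATP6AP2 and RNASEK are outside these counts, and none of them was listed. Of the 5 kinds of V0 subunit in a list of the family (a, b, c, d and e, named by the letter in the symbol), 4 had at least 1 gene up, and for the kind left, e, ATP6V0E2 was the listed gene. Of the 8 kinds of V1 subunit (A to H), 4 had a gene up, namely B, E, F and H, and for the other 4, A, C, D and G, no gene was listed. ATP6V1A, which encodes the subunit that splits ATP, is among these. Of the 23 subunit genes of both sectors in that list, 12 were not listed, which are ATP6V0A1, TCIRG1 (the a3 subunit), ATP6V0A4, ATP6V0E1, ATP6V1A, ATP6V1B1, ATP6V1C1, ATP6V1C2, ATP6V1D, ATP6V1G1, ATP6V1G2 and ATP6V1G3. A gene that is not listed did not meet the authors' criteria, was not expressed, or was outside the pathways, and the authors' deposited table does not tell these apart.

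**Figure D1:**
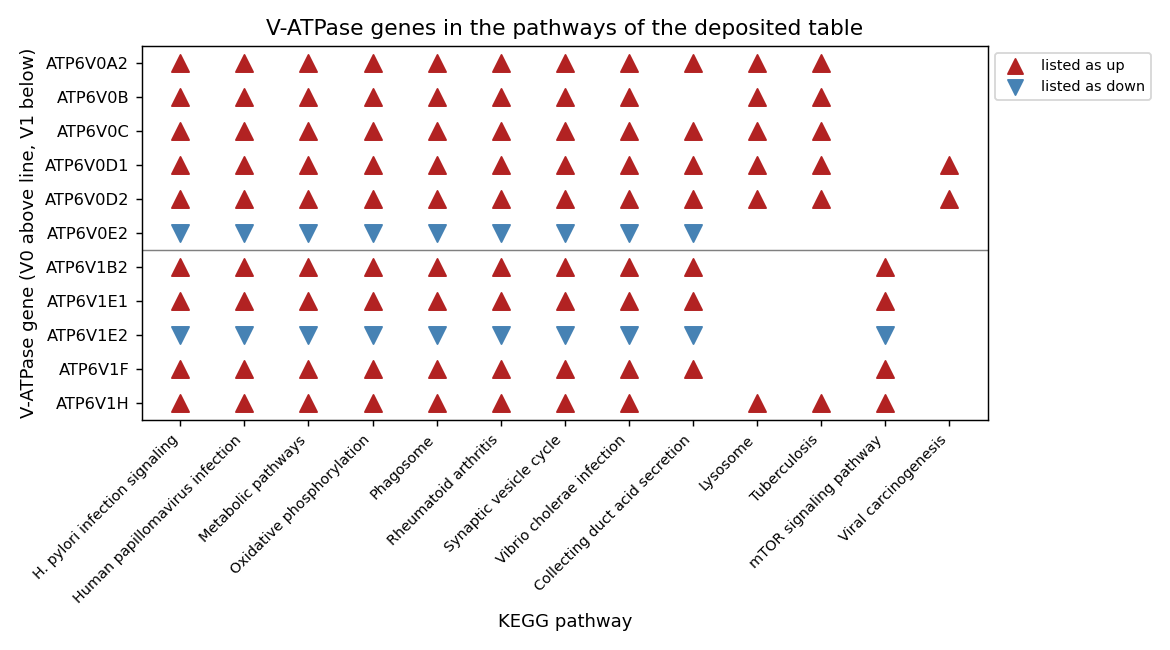
V-ATPase genes (vertical axis, V0 sector above the line and V1 sector below it) and the 13 KEGG pathways that list at least 1 of them (horizontal axis). A red triangle pointing up is a gene listed as up under that pathway and a blue triangle pointing down one listed as down. ATP6V0E2 and ATP6V1E2 are down in each pathway that lists them, and every V-ATPase gene apart from them is up.

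Identity between paralogs of the V-ATPase was taken over the bases that aligned. The coding sequences of ATP6V1E1 and ATP6V1E2 were 77.0% identical over 675 aligned bases, and those of ATP6V0D1 and ATP6V0D2, both up, were 69.3% identical over 1049 bases. ATP6V0B and ATP6V0C, both up, were 69.1% identical over 457 of the 783 coding bases of ATP6V0B. ATP6V0E2, down, and ATP6V0E1, not listed, were 74.9% identical over 243 of the 639 coding bases of ATP6V0E2. ATP6V1B2 was 75.5% identical to ATP6V1B1, and ATP6V0A2 was 64.3% identical to ATP6V0A1, 64.9% to ATP6V0A4 and 63.5% to TCIRG1, all 4 of these paralogs not listed.

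Processed copies elsewhere in the genome had higher identities to 2 of the genes listed as up. Copies were aligned locally and paralogs globally, with other scores, so the identities of copies and paralogs are not on the same scale. ATP6V1E1 has 1 processed copy in GENCODE, ATP6V1E1P1 on chromosome 1, with 94.7% identity over 681 bases. ATP6V0C has 4, of which ATP6V0CP3 on chromosome 6 was the closest with 92.5% identity over 467 bases, and the other 3 ranged from 81.4% to 86.9%. The labels do not say how reads that match both a gene and its copy were counted, so the direction of these 2 genes is uncertain to that extent.

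Several V-ATPase genes also share exon bases with another gene. ATP6V1E2 shares 155 exon bases with RHOQ, a small GTPase gene on the opposite strand that was itself listed as down. ATP6V0E2 shares 864 exon bases with its antisense transcript ATP6V0E2-AS1 and 466 with a long noncoding RNA on its own strand. Among the genes listed as up, ATP6V0C shares 862 exon bases with a protein-coding gene model on the same strand that spans it, ATP6V0D2 502 with an antisense RNA, ATP6V0B 302 with an antisense RNA, ATP6V0A2 292 with an unclassified transcript on the opposite strand and ATP6V1F 187 with KCP on the opposite strand. The labels do not say whether the counting used strand. Without genes that share exon bases or have a processed copy, 3 of the 11 genes are left, ATP6V0D1, ATP6V1B2 and ATP6V1H, all listed as up, and neither gene listed as down is among them. The part of shared sequence in the directions was not tested.

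The V-ATPase genes recur in 13 of the 327 pathways, and 8 of these hold all 11 genes. Each V-ATPase gene was under 9 to 12 pathways, against a median of 2 for all listed genes, which reflects annotation and not the size of a change. In 10 of the 13 pathways the V-ATPase genes were split between up and down. In the other 3, Lysosome and Tuberculosis with 6 genes each and Viral carcinogenesis with ATP6V0D1 and ATP6V0D2, all were up, since neither ATP6V0E2 nor ATP6V1E2 is under them. The mTOR signaling pathway held the 5 V1 genes, 4 up and ATP6V1E2 down, and no V0 gene.

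The V-ATPase genes made up much of what was listed in the smaller pathways. They were 9 of 10 listed genes in Collecting duct acid secretion, a kidney pathway, where the potassium-chloride cotransporter gene SLC12A7, up, was the other one. They were 11 of 21 listed genes in Synaptic vesicle cycle (52.4%), 11 of 23 in Vibrio cholerae infection (47.8%), 11 of 27 in the Helicobacter pylori pathway (40.7%) and 11 of 31 in Oxidative phosphorylation (35.5%). In Metabolic pathways, the largest, they were 2.81% of 392 listed genes. The authors' background held 35 genes for Collecting duct acid secretion, 90 for Synaptic vesicle cycle and 59 for Vibrio cholerae infection. It held 78 for the Helicobacter pylori pathway and 158 for Oxidative phosphorylation. How many of these background genes encode the V-ATPase is unknown, so the shares describe the make-up of each pathway's list and not an enrichment.

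Which way these pathways leaned changed in several cases with the V-ATPase genes set aside. With them, 7 of the 13 pathways had more genes up than down, and in 5 of these 7 the other genes alone did not. Lysosome went from 28 up and 22 down to 22 and 22, and Phagosome from 25 and 22 to 16 and 20. Synaptic vesicle cycle went from 13 and 8 to 4 and 6, Vibrio cholerae infection from 15 and 8 to 6 and 6, and the Helicobacter pylori pathway from 16 and 11 to 7 and 9. Rheumatoid arthritis kept more genes up than down (13 and 8 without the V-ATPase genes), and Collecting duct acid secretion had 1 other gene. The same 11 genes were taken out each time, so these are not separate results. In each pathway more of the V-ATPase genes were up than down. Setting them aside therefore had to lower the surplus of up over down, and the shift restates their directions.

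Among the 13 pathways, Oxidative phosphorylation showed the widest gap in the share of genes up between the V-ATPase genes and the rest of a pathway. KEGG places the V-ATPase there beside the respiratory chain, with which it shares the use of proton gradients but not its compartment. The pathway had 12 genes up and 19 down in all. Without the V-ATPase genes, 3 were up and 17 down (15.0% up). All 9 mitochondrially encoded genes listed under this pathway were down. Of the 11 other nuclear genes, the respiratory chain genes NDUFB9, NDUFA11 and COX7A2L were up and 8 were down, among them the succinate dehydrogenase subunits SDHA and SDHD. No gene of the nuclear list of the mitochondrial ATP synthase, the relative of the V-ATPase that makes ATP, was listed (0 of 15). A mitochondrially encoded subunit gene of this synthase, MT-ATP8, was listed, as down.

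**Figure D2:**
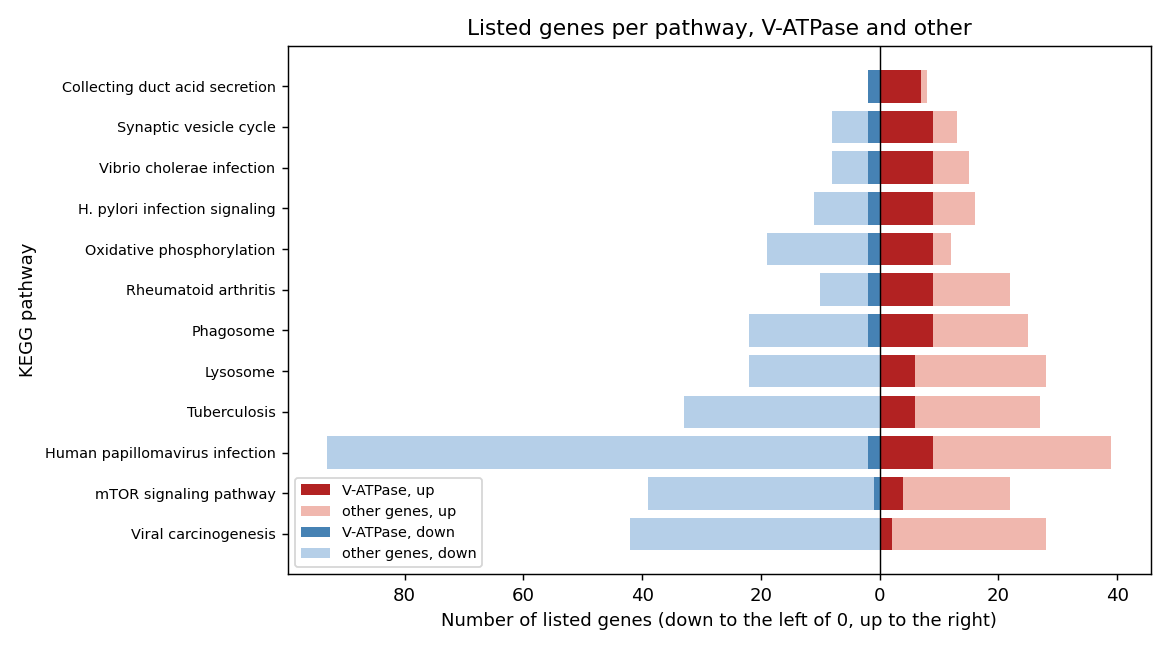
Listed genes in 12 of the 13 pathways that hold V-ATPase genes (vertical axis; Metabolic pathways, with 392 listed genes, is left out for scale). Bars to the right of 0 count genes listed as up and bars to the left genes listed as down, with V-ATPase genes in dark and other genes in pale colour. In Oxidative phosphorylation 9 of the 12 genes to the right are V-ATPase genes, and in Collecting duct acid secretion 7 of 8.

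The authors' enrichment values for these pathways were mixed. In the authors' deposited table, 5 of the 13 had a p below 0.05 and 1 had a q below 0.05, namely Human papillomavirus infection (p = 0.00612, q = 0.0400). The authors' deposited table gave Vibrio cholerae infection the highest rich factor among the 13, which divides the fraction of changed genes that fall in a pathway by the same fraction of the background, at 1.55 (p = 0.0365, q = 0.151). In the authors' deposited table, Lysosome had a rich factor of 1.43 (p = 0.0143, q = 0.0765) and the mTOR signaling pathway 1.37 (p = 0.0154, q = 0.0787). Oxidative phosphorylation, Phagosome, Synaptic vesicle cycle, Tuberculosis and Rheumatoid arthritis had a rich factor below 1 and a p of 1 in the authors' deposited table. These p-values take genes as units and come from 2 libraries, so they describe this list and not cultures.

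The lists of genes that work with the V-ATPase are given as counts, beside the 25.2% of all background genes that were listed. The authors' deposited table does not name its background genes that did not change, so how many genes of each list could have been listed is unknown, and nothing is read from a count of 0. None of the 3 accessory subunit genes (ATP6AP1, ATP6AP2 and RNASEK) and none of 7 genes of pump assembly (DMXL1, DMXL2, WDR7, ROGDI, CCDC115, TMEM199 and VMA21) was listed, and neither was any of the 3 P-type proton pump genes. Of 14 endolysosomal ion channels and exchangers, MCOLN1, a calcium channel of the lysosome, was the 1 listed gene and was up. Of 19 genes of nutrient sensing at the lysosome, which uses the V-ATPase as a platform, 4 were up and 1 was down, a listed share of 26.3% that is near the background. The Rag GTPase genes RRAGC and RRAGD, the folliculin gene FLCN, which acts on them, and RPTOR, the mTORC1 subunit that they recruit, were up, and RRAGB was down. Of the 4 MiT/TFE transcription factors, which are known to drive genes of lysosomes, TFE3 was up, MITF was down, and TFEB and TFEC were not listed.

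Other lysosomal genes pointed both ways. Of 16 lysosomal membrane protein genes, 7 were up, including CD63, CD68, the cystine exporter CTNS and LAMP1, and 2 were down, the peptide transporter ABCB9 and LAPTM4B. Of 18 protease genes, CTSD, CTSL and TPP1 were up and CTSC, CTSK, CTSO and CTSV were down. Of 35 glycosidases, sulfatases, lipases and related enzymes, 8 were up, including ACP2, ARSA, GAA and HEXA, and 4 were down, AGA, ARSB, GALC and PPT2. The listed share was 56.2% of the membrane protein genes, 38.9% of the proteases and 34.3% of the other enzymes. As shares of the listed genes, 83.3% of V0 genes, 80.0% of V1 genes and 77.8% of the membrane protein genes were up, against 42.9% of the proteases, 66.7% of the other enzymes and 32.5% of all listed genes. These lists were drawn up with earlier results of these data known, some rest on few genes, and the differences between them were not tested.

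**Figure D3:**
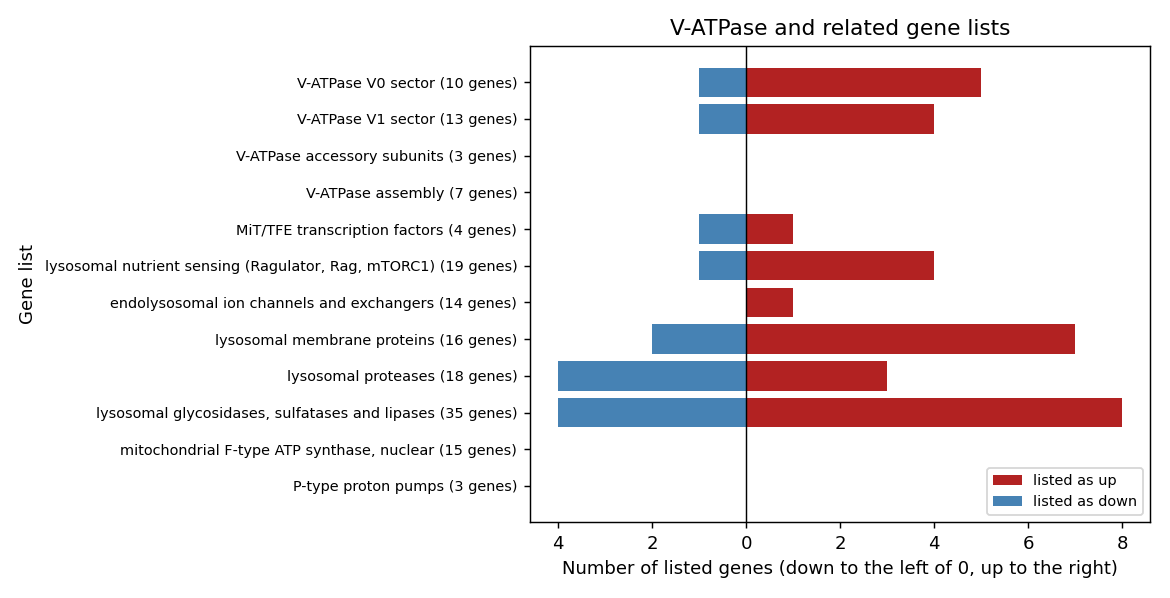
Numbers of genes listed as up (red, right of 0) and as down (blue, left of 0) in the 2 V-ATPase sectors and in 10 lists of related genes (vertical axis, with the number of genes in each list). The V0 sector has 5 up and 1 down, the V1 sector 4 up and 1 down, and 4 lists have no listed gene.

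Nothing in the authors' deposited table gives levels by which the liver label of the line could be checked. Of 8 markers of the liver lineage, AFP was listed, as down. Of 8 genes known from cells specialised in acid secretion, such as osteoclasts and kidney intercalated cells, ATP6V0D2 was up and the osteoclast protease CTSK was down. ATP6V0A4 and ATP6V1B1, the V-ATPase isoforms best known from kidney, were not listed, nor was TCIRG1, the isoform known from osteoclasts.

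The non-member genes with the most similar set of pathways shared few of them. The set of 10 pathways common to ATP6V1B2, ATP6V1E1, ATP6V1E2 and ATP6V1F was compared with that of each other listed gene by the Jaccard index, the share of pathways held in common out of those held by either. The highest was 0.182 for COX11, a cytochrome oxidase assembly gene listed as down, followed by 0.167 each for SEC61A1 and SEC61B, genes of the channel into the endoplasmic reticulum and both up, and 0.154 each for MT-ND3 and MT-ND4, both down. Each shared 2 pathways with the set.

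The V-ATPase genes lie on 7 chromosomes. Chromosome 8 holds the most, ATP6V0D2, ATP6V1B2 and ATP6V1H, all 3 up, and 35.8% of its 81 other listed genes were up. ATP6V0C and ATP6V0D1 share chromosome 16, where 48.6% of the 70 other listed genes were up. ATP6V1F, up, and ATP6V0E2, down, share chromosome 7, where 27.2% of 103 others were up. ATP6V1E2, down, lies on chromosome 2, where 20.8% of 168 others were up. ATP6V0A2, up, lies on chromosome 12, with a like share of 21.0% of 124 others. ATP6V0B, up, lies on chromosome 1 (32.1% of 221 others up), and ATP6V1E1, up, on chromosome 22 (43.9% of 41).

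Among all listed genes the direction went with base composition, and the V-ATPase genes are therefore given with theirs. The longest transcript of the V-ATPase genes had a median GC content of 46.6%, close to the 47.0% of the 2226 other listed genes with annotation. The 9 V-ATPase genes listed as up had a median of 48.0% (range 40.0% to 63.6%), below the 55.2% of other genes listed as up. The 2 listed as down had 44.6% (ATP6V1E2) and 45.4% (ATP6V0E2), near the 43.6% of other genes listed as down. Averaged over all transcripts of each gene, the median of the V-ATPase genes was 48.8%. By this mean it was 55.8% for other genes listed as up and 45.4% for other genes listed as down. ATP6V1E2 had 48.1% and ATP6V0E2 60.8%, so the nearness of ATP6V0E2 to other down genes held for its longest transcript and not for this mean.

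Set in 10 classes of GC content, the V-ATPase genes were spread from the second class to the last. ATP6V1B2 (40.0% GC) was up in a class where 6.28% of the other genes were up, and ATP6V0A2 (43.6%) and ATP6V0D2 (42.4%) in one with 15.8%. ATP6V1E1 (46.6%), up, shared a class with the 2 genes listed as down, and 27.1% of the other genes there were up. ATP6V1H was up in a class with 40.8%, and ATP6V1F in one with 45.9%. ATP6V0D1, ATP6V0B and ATP6V0C were up in classes where 55.6%, 56.5% and 63.5% of the others were. Of the 9 genes listed as up, 4 were in classes where under 30% of other genes were up. Those classes, 1 to 5, held 7, 14, 19, 35 and 60 of the 719 other genes listed as up. The longest transcripts of the V-ATPase genes listed as up had a median length of 2432 bases, against 2863 for the rest of the up genes and 4404 for the rest of the down genes. They ranged from 711 bases (ATP6V1F) to 6907 (ATP6V1B2). The 2 V-ATPase genes listed as down lay within this range, ATP6V1E2 with 2334 bases and ATP6V0E2 with 4146. The part of base composition in the directions of the V-ATPase genes was not tested.

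**Figure D4:**
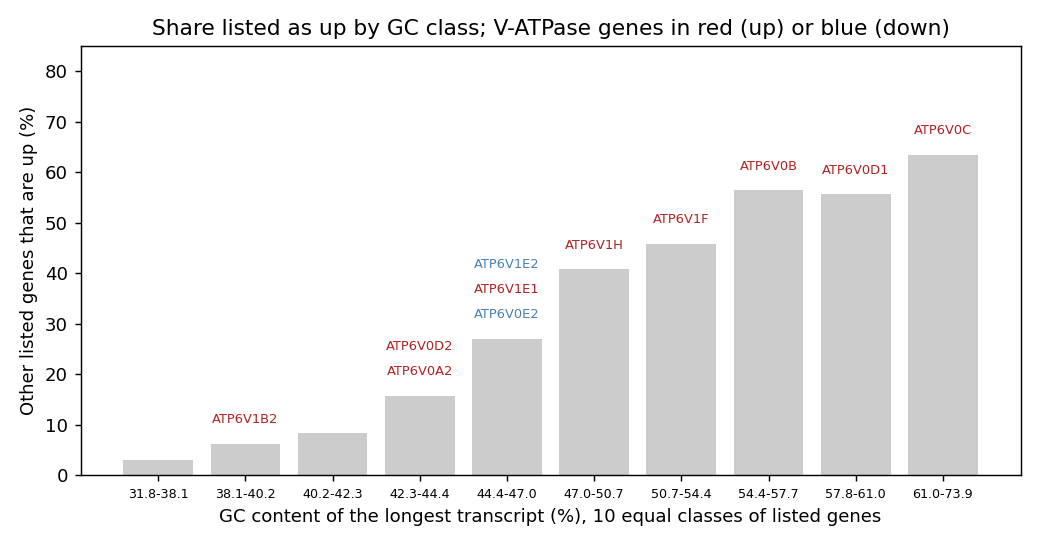
Share of other listed genes that are up (grey bars, percent) in 10 equal classes of GC content of the longest transcript (horizontal axis, percent), with the V-ATPase genes of each class named above its bar in red if up and in blue if down. Of the other genes, 3.12% are up in the lowest class and 63.5% in the highest, and the V-ATPase genes listed as up lie in 8 of the 10 classes.

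The starts of 3 V-ATPase genes hold the letters CACGTG, the core of the element through which MiT/TFE factors are known to bind lysosomal genes. RefSeq start windows on GRCh38.p14, from 250 bases before to 50 after a start, were matched for 7 of the 11 genes, 6 of them up. CACGTG, which reads the same on both strands, was in a window of ATP6V0B, ATP6V0D1 and ATP6V0E2, the first 2 up and the third down, and in none for ATP6V0A2, ATP6V0C, ATP6V1E1 and ATP6V1F. It was in 7.26% of all 35116 windows. By gene, it was in 3 of the 7 V-ATPase genes and in 8.77% of all 27305 genes with a window. It was in 16.1% of 554 other genes listed as up and 12.2% of 1184 other genes listed as down that have a window. The sites are shown because they let a reader compare the flanks, with the 6 motif bases in capitals, 5′ to 3′ on the strand of the gene:
ATP6V0B, first site, chr1:43974891-43974920: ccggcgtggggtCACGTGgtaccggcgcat
ATP6V0B, second site, chr1:43974909-43974938: gtaccggcgcatCACGTGggcgagttaggt
ATP6V0D1, chr16:67481199-67481228: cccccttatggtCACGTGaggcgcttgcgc
ATP6V0E2, chr7:149872884-149872913: tcccttctgcatCACGTGgggactgcgcct

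The bases beside CACGTG differed between these sites. The longer motif GTCACGTG, searched on both strands and overlapping CACGTG, was at the first ATP6V0B site and at the ATP6V0D1 site, not at the second ATP6V0B site or the ATP6V0E2 site, and in 2.40% of all windows. By gene, it was in 2 of the 7 V-ATPase genes and in 2.93% of all genes with a window. Of other genes listed as up 6.68% held it, and of other down genes 4.81%. TCACGTGA, which overlaps both, was at the ATP6V0D1 site alone among these and in 0.980% of all windows. By gene, TCACGTGA was in 1.18% of all genes with a window, 2.71% of the other up genes and 1.69% of the other down genes. The sites begin 57 and 39 bases before the RefSeq start of ATP6V0B, 59 before that of ATP6V0D1 and 72 before the first listed start of ATP6V0E2. Those of ATP6V0B lie in an exon of 1 of its 13 GENCODE transcripts and that of ATP6V0D1 in an exon of 1 of 18, while that of ATP6V0E2 lies upstream of all 14. A match to these letters describes the sequence and is not evidence of binding.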

How the data were processed

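RNA came from 1 control and 1 ezetimibe culture (24 h). HISAT2 2.0.4 and StringTie 1.3.0 appear in the submitters' processing notes, and the deposited table's name adds edgeR and a KEGG enrichment. Not given in the sources used here are settings, genome build, annotation, strandedness, depth and thresholds. The deposited table holds, per the file headers and for each pathway, the numbers and names of changed genes up and down, the rich factor (a ratio of 2 shares), a p-value and a q-value. It was parsed with no filter, and no gene was listed in both directions. With 1 library per group no test was made.

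The members and lists were chosen with earlier results of these data known. Named genes are all members, listed family genes, all listed genes of lists with 6 or fewer of them or else the first 4 by alphabet in each direction, and the 5 genes with the most similar pathway sets. RHOQ, KCP, SLC12A7, the exon-sharing RNAs, NDUFB9, NDUFA11, COX7A2L, SDHA, SDHD and MT-ATP8 were named after their values were seen. List genes were matched by symbol or gene ID. GC content and length came from GENCODE release 29 for 2237 listed genes. Coding sequences were aligned with Biopython 1.88 (global, match 2, mismatch -1, gap -5 and -0.5), and processed copies locally (mismatch -3, gap -5 and -2). Direction parsing and motif search were tested on simulated data. Python 3.11.15 and Matplotlib 3.10.9 were used.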

Additional observations from a re-analysis of the deposited data

How the results depend on the processing

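The 11 V-ATPase genes, 9 up and 2 down, were found again when pathways were limited to those with an authors' p or an authors' q below 0.05, without disease pathways, with TCIRG1 and the accessory subunits added to the rule, and when counted by gene ID. The limits on pathways bear on which pathways are searched and not on the calls. Human papillomavirus infection, which passes the p and q limits, and Oxidative phosphorylation, not a disease pathway, each hold all 11 genes. The added genes were not listed, and each symbol had its own gene ID. None of these settings could therefore change the counts. In an alternative chosen after seeing the data, leaving out genes that share exon bases with another gene or have a processed copy left 3 genes, 3 up and 0 down, because fewer genes are counted. The share up of all listed genes was 32.5%, and ranged from 30.7% with pathways of an authors' p below 0.05 to 32.5%. The median GC content of the V-ATPase genes was 46.6%, and 48.8% as a mean over all transcripts. The count of genes with CACGTG at a start was 3, against 2 for GTCACGTG and 1 for TCACGTGA. With 1 library per group no replicate could be left out, and the depth behind each call is unknown.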
